A study of Mus musculus with 30 samples.

Results

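ABC transporters are membrane proteins that use ATP binding and hydrolysis to move lipids, sterols, peptides, metabolites and drugs across membranes. Of the 25611 gene rows in the count table, 50 carried a symbol of the subfamilies Abca to Abcg followed by a number, and these 50 rows are the members described here. The rule reads the symbols alone, but the members were chosen with earlier results of these data known. A filter on low counts left 38 members for testing. The 12 members that did not pass were Abca12, Abca14, Abca15, Abca16, Abcb5, Abcb11, Abcc6, Abcc8, Abcc12, Abcg4, Abcg5 and Abcg8. Abca15 and Abca16 were at 0 counts in all 30 libraries, and Abcg4 held the most of the 12, with 124 counts over all libraries.

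RNA was sequenced from dendritic cells grown out of mouse bone marrow for 6 to 7 days with FLT3L at 200 ng/ml, a cytokine that drives bone marrow precursors towards dendritic cells. The cells carried a knockout of Rubcn (KO), which encodes Rubicon, a protein known for its part in LC3-associated phagocytosis, or were its wild type (WT). Cells of each genotype were left untreated, were given OVA protein for 30 min or 4 h, or were given apoptotic Jurkat cells for 30 min or 4 h; Jurkat is a human T cell leukaemia line. Each of the 10 groups held 3 libraries. The labels give no strain, age, sex or number of mice, no exon or cell type in which Rubcn was deleted, and no statement that the 3 libraries came from separate mice or cultures, so that the p-values measure the spread between these libraries, which may be technical. The cells were a bulk culture of differentiated marrow, in which fewer cells of a type and less RNA per cell cannot be told apart.

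In cells that take up other cells, the lipid of the meal has to be stored, metabolised or exported. Abca1 passes cholesterol and phospholipid to lipid-poor apolipoprotein A-I, Abcg1 passes sterol to lipoprotein particles, and both genes are known targets of the liver X receptors, nuclear receptors that respond to oxidised sterols. Other branches of the family have other work: Abcb1a and Abcb1b are drug efflux pumps, the ABCD proteins bring fatty acyl chains into peroxisomes or act at the lysosome, and the ABCE and ABCF proteins are ATPases of ribosome recycling and translation without a membrane domain.

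Total counts ran from 9734778 to 51642601 per library, and the shallowest library was replicate 3 of KO cells given OVA for 30 min; no call of a member was lost without it. Between replicates, counts differed with a chi-square per degree of freedom of 2.28 to 16.6, except for KO Jurkat 4 h replicate 2, which stood at 129 and 134 against the other two libraries of its group. Levels are given as CPM, counts scaled to the size of each library after TMM, a factor per library that aligns the bulk of the genes. The TMM factors were 0.765 to 0.842 in the 6 libraries with Jurkat cells for 4 h and 1.03 to 1.07 in all others, and the members together took 0.160 to 0.180% of counts in the former and 0.200 to 0.218% in the latter. Rubcn itself was at 98.9 ± 4.96 CPM (SD, n = 3) in untreated WT cells and 72.8 ± 2.74 CPM in KO, and in each of the 5 conditions the highest KO library lay below the lowest WT library. Reads of Rubcn were thus still counted in KO cells, and whether they fall in the deleted stretch was not tested. All 6 dendritic cell markers (Flt3, Itgax, H2-Aa, H2-Ab1, Cd74 and Zbtb46) were detected in each group. The summed level of 6 basophil or mast cell markers was 20.1 to 26.6 CPM in untreated WT and 52.3 to 81.5 in untreated KO libraries, and that of 10 stromal markers was 561 to 642 and 727 to 909 CPM. Of 25 T lineage markers 22 had a row, and their sum was 87.7 to 93.4 CPM in untreated WT libraries, 147 to 153 with Jurkat cells for 30 min and 206 to 250.3 at 4 h. These sums move with genotype or with the Jurkat cells, and their part in the results below was not tested.

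Promoter sequences are shown for 3 members whose level moved by a large or steady amount after Jurkat cells: Abca1, a cholesterol exporter that rose, Abcb1b, a drug efflux pump that rose, and Abcg3, a rodent relative of the drug exporter Abcg2 that fell. RefSeq (GRCm38.p6) held a promoter entry for 38 of the 50 members, and held none for Abcg1 and Abca6. Each line gives the 250 bases before the annotated start, 5′ to 3′ on the gene's strand, with motif matches in capitals. The Abca1 window lies at chr4:53159896-53160145 on the minus strand, the Abcb1b window at chr5:8797897-8798146 on the plus strand and the Abcg3 window at chr5:104982718-104982967 on the minus strand.
Abca1: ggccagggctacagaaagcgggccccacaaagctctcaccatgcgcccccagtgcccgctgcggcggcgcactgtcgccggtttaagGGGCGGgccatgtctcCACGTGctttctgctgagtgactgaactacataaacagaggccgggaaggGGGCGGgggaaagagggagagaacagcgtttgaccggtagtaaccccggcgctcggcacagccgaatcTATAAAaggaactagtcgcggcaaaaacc
Abcb1b: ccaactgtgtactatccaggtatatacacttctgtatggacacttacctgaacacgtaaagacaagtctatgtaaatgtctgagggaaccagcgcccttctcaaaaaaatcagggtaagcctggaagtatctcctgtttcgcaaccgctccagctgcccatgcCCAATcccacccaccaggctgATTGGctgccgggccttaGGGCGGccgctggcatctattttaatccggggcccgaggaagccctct
Abcg3: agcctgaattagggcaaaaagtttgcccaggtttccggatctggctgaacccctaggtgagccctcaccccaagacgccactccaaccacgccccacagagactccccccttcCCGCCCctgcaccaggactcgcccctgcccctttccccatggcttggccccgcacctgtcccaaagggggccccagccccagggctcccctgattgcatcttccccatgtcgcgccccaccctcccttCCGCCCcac
Counted from the start, the Abca1 window holds GC boxes (GGGCGG) at -163 and -97, an E-box (CACGTG) at -147 and a TATA box (TATAAA) at -29. In the Abcb1b window a CCAAT box begins at -87, its reverse complement at -66 and a GC box at -48. The Abcg3 window holds the GC box on the opposite strand, at -137 and -9. Both strands of windows of 300 bases, which add the 50 bases after the start, were searched. The E-box was found in 6 of 38 member windows and in 7.15% of all 32851 promoter windows, the GC box in 17 of 38 and 35.7%, CCAAT in 13 of 38 and 37.4%, and TATAAA in 5 of 38 and 13.6%. A direct repeat of AGGTCA spaced by 4 bases (DR4), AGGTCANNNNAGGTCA with N for any base, is the textbook liver X receptor element in its perfect form. It was found in 0 of 38 member windows and 0.0152% of all windows. With so small a share, 0 matches in 38 windows do not tell whether the windows hold liver X receptor elements. Imperfect forms of the repeat were not searched for. The single half-site AGGTCA, which lies within that repeat, was in 5 of 38 and 16.3%, the NF-kB motif (GGGA and CC with 4 bases between) in 11 of 38 and 20.7%, and the GAS motif TTCNNNGAA in 2 of 38 and 8.3%. A match describes letters in the window, not a bound site.

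In untreated WT cells the members differed widely in level when counts were divided by exon length (CPM per kb of GENCODE M21 exon, mm10), down to 0.00683 CPM per kb for Abcc9. The length was the union of all annotated exons of a gene, 15092 bases for Abcc1. The ranks depend on these lengths, and which transcripts the cells expressed was not tested. The translation ATPase Abcf1 stood at rank 2 with 39.2 ± 2.02 CPM per kb (SD, n = 3) and at rank 3 stood Abca7, a phospholipid transporter linked to phagocytosis, with 34.1 ± 1.56. Among the exporters, Abcg1 stood at rank 7 of 38 with 18.8 ± 0.305 CPM per kb and Abca1 at rank 15 with 5.76 ± 1.19, where it overlapped with Abcb8 below it. Abca6 stood at rank 23 with 1.68 ± 0.115 CPM per kb, and its libraries overlapped those of Abcb6 above it and Abca5 below it in the order. The first 7 ranks did not overlap with their neighbours, whereas Abca3, Abcf3 and Abcc1 at ranks 8 to 10 did. After 4 h with Jurkat cells, Abcg1 stood at rank 3 in WT cells with 30.0 ± 2.92 CPM per kb, Abca1 at rank 10 with 10.4 ± 0.681, and Abca6 at rank 33 with 0.0415 ± 0.0366. Of the 38 tested members, 28 had a mean of at least 1 CPM in all 10 groups. Another 5, Abca4, Abca8a, Abca13, Abcc2 and Abcc9, had a mean under 1 CPM in every group. Their highest single libraries held 18, 29, 40, 13 and 123 counts, in that order.

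**Figure D1:**
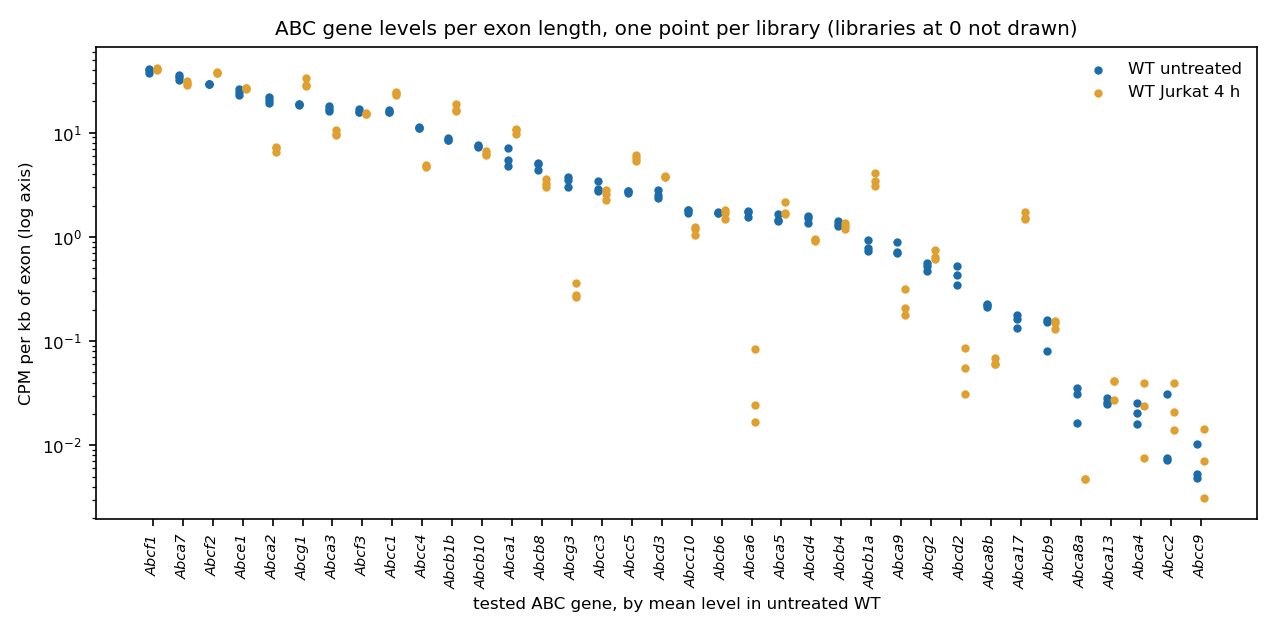
Level of 36 tested ABC genes per kb of exon (CPM per kb, log axis) in the 3 untreated WT libraries and the 3 WT libraries given Jurkat cells for 4 h; each point is a library. Abcf1 and Abca7 are high in untreated cells, Abca6 and Abcg3 drop furthest, and libraries at 0 are not drawn.

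Abca1 (chromosome 4, 53030789 to 53159895, minus strand, mm10) was higher after 4 h with either treatment. Its levels in untreated libraries 1 to 3 were 73.4, 56.4 and 49.3 CPM in WT and 86.4, 61.1 and 61.3 CPM in KO, and replicate 1 was the highest of each trio. After OVA for 30 min they were 90.6, 76.4 and 67.9 CPM in WT and 75.3, 76.5 and 74.6 CPM in KO, and after Jurkat cells for 30 min 70.2, 65.0 and 74.2 and 65.5, 60.2 and 70.8 CPM. All of these early groups overlapped with untreated cells of the same genotype. After OVA for 4 h the levels were 94.8, 93.4 and 98.0 CPM in WT and 91.4, 90.2 and 91.1 CPM in KO, above every untreated library of the same genotype. After Jurkat cells for 4 h they reached 110.2, 114 and 99.97 CPM in WT and 134, 115 and 119 CPM in KO, again with no overlap with untreated cells. KO libraries lay above WT libraries in that condition and below them after OVA for 4 h.

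Calls below are adjusted p-values under 0.05 from edgeR's quasi-likelihood test with Benjamini-Hochberg adjustment over 14808 genes. Shares of all genes called are given for this model alone. They were not computed for other settings or with a library left out. Abca1 was higher after OVA for 4 h by a log2 fold change of 0.68 ± 0.11 (SE) in WT (edgeR adjusted p = 5.3e-05) and 0.39 ± 0.11 in KO (edgeR adjusted p = 0.0238). The KO call was lost without KO OVA 4 h replicate 1 or 2 or 3 or KO untreated replicate 2 or 3, with log2 values of 0.30 to 0.57 over the leave-outs. After Jurkat cells for 4 h Abca1 rose by 0.86 ± 0.12 in WT and 0.82 ± 0.11 in KO (edgeR adjusted p = 1.01e-07 and 1.9e-07), or by 0.45 and 0.48 when libraries were scaled to their total counts. A rise of 0.39 ± 0.11 after OVA for 30 min in WT passed the threshold (edgeR adjusted p = 0.0254), but the call was lost in a fit of these groups alone and without WT OVA 30 min replicate 1 or 2 or WT untreated replicate 2 or 3 (0.27 to 0.57). The other early changes of Abca1, 0.12 with OVA in KO, 0.23 with Jurkat cells in WT and -0.09 in KO, did not pass. Between genotypes no condition gave a call in the model of all libraries, with KO against WT log2 values of 0.22 untreated, -0.05 and -0.09 after OVA and Jurkat cells for 30 min, and -0.07 and 0.18 at 4 h. The last was called in a fit of these groups alone (0.20, edgeR adjusted p = 0.0392). The differences between the KO and WT responses were -0.27, -0.31, -0.29 and -0.04 in the same order of treatments, none with a call. A direct comparison of Jurkat cells with OVA at 4 h over both genotypes gave 0.30 ± 0.08 (edgeR adjusted p = 0.000975), which turned to -0.06 under total counts; at 30 min the value was -0.19, called only in a fit of these groups alone.

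Abcg1 (chromosome 17, 31057694 to 31117981, plus strand) separated the genotypes in every condition except 4 h with Jurkat cells. Untreated libraries 1 to 3 were at 134, 138 and 138 CPM in WT and 166, 160.3 and 154 CPM in KO. After OVA for 30 min they were at 122, 122 and 125 and 153, 145 and 140.4 CPM, and after Jurkat cells for 30 min at 124, 114 and 129 and 149, 141 and 149 CPM, WT before KO. Every KO library lay above every WT library in these 3 conditions. OVA for 4 h brought 112, 107 and 106 CPM in WT and 128, 129 and 123 CPM in KO, lower than untreated in each genotype and again apart. Jurkat cells for 4 h brought 205, 244 and 209 CPM in WT and 232, 195 and 213 CPM in KO, above all other groups and with the genotypes overlapping.

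Abcg1 was thus higher in KO by a log2 fold change of 0.23 ± 0.057 untreated, 0.25 ± 0.058 after OVA for 30 min, 0.26 ± 0.057 after Jurkat cells for 30 min and 0.23 ± 0.057 after OVA for 4 h, with edgeR adjusted p between 0.00361 and 0.00825. The untreated call was lost without KO untreated replicate 1 (0.20 to 0.25). At 4 h with Jurkat cells the value was -0.04 ± 0.056 and was not called. The difference between the KO and WT responses to Jurkat cells at 4 h was -0.26 ± 0.08 and missed the threshold (edgeR adjusted p = 0.0561). In 6 of 9 alternatives of processing it was not called either, and values over the 9 ran from -0.28 to -0.20. It passed with a stricter filter on low counts (-0.26) and in DESeq2 (-0.27). It also passed with TMM factors, added after seeing the data, that leave out genes exceeding OVA in the 30 min Jurkat groups (-0.28). The response differences after OVA for 30 min, Jurkat cells for 30 min and OVA for 4 h were 0.03, 0.03 and 0.01. OVA for 4 h lowered Abcg1 by a log2 fold change of 0.34 in WT and 0.34 in KO. Jurkat cells for 4 h raised it by 0.68 ± 0.057 in WT and 0.41 ± 0.056 in KO, or by 0.27 and 0.07 under total counts, where the KO value was no longer called. A fall of 0.16 in WT after Jurkat cells for 30 min was called but lost without WT Jurkat 30 min replicate 1 or 2 or WT untreated replicate 2 or 3 (-0.22 to -0.12) and with the other TMM factors, and the KO value was -0.13. After OVA for 30 min the values were -0.16 in WT and -0.13 in KO, neither called. The WT value was called under total counts, with the filter of 5 CPM and in a fit of these groups alone. In the other 6 of 9 alternatives it was not called. No library treated for 30 min overlapped with the untreated ones of its genotype. Jurkat cells exceeded OVA at 4 h by 0.89 ± 0.04 over both genotypes (edgeR adjusted p = 2.46e-18), whereas at 30 min the difference was -0.01.

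**Figure D2:**
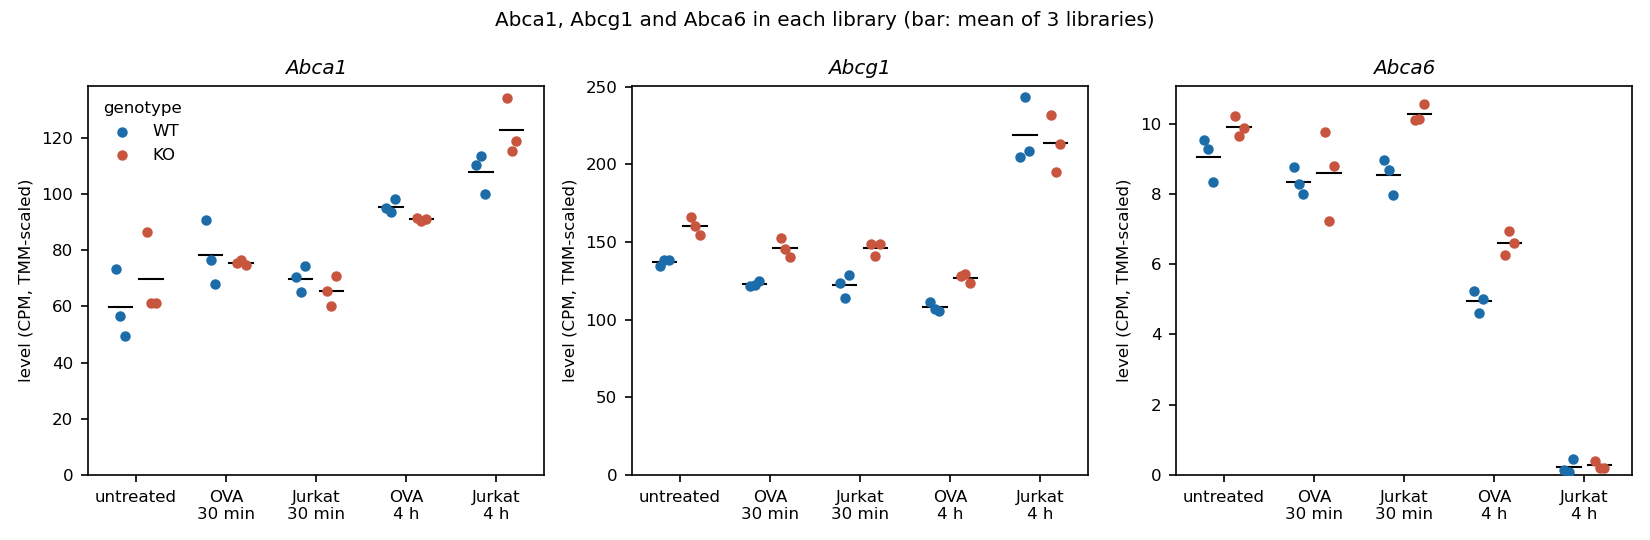
Levels of Abca1, Abcg1 and Abca6 (TMM-scaled CPM) in each of the 30 libraries by condition, WT and KO side by side; bars are means of 3 libraries. Abca1 is highest at 4 h, Abcg1 is higher in KO in all conditions but 4 h with Jurkat cells, and Abca6 falls from between 8.35 and 10.2 CPM untreated to between 0.0897 and 0.451 CPM after 4 h with Jurkat cells.

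Abca6 lies in a tandem array of related genes on chromosome 11, at 110176821 to 110251776 on the minus strand, and its substrate is less well known than those of Abca1 and Abcg1. Its levels were 9.53, 9.27 and 8.35 CPM in untreated WT libraries and 10.2, 9.64 and 9.88 CPM in the KO ones. At 30 min they were 8.77, 8.28 and 8.01 (WT) and 9.76, 7.24 and 8.78 CPM (KO) with OVA, and 8.97, 8.69 and 7.98 (WT) and 10.1, 10.1 and 10.6 CPM (KO) with Jurkat cells. Each of these early groups overlapped with the untreated libraries of its genotype. OVA for 4 h left 5.25, 4.60 and 5.02 CPM in WT and 6.25, 6.95 and 6.61 CPM in KO, lower than any untreated library and with KO above WT. After Jurkat cells for 4 h the libraries held 0.131, 0.0897 and 0.451 CPM in WT and 0.401, 0.212 and 0.209 CPM in KO, 23 and 31 counts in all against 1267 and 1445 in the untreated libraries.

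The fall of Abca6 with Jurkat cells for 4 h was 40.7-fold in WT (log2 -5.35 ± 0.20) and 35.9-fold in KO (log2 -5.17 ± 0.19), with edgeR adjusted p of 5.38e-20 and 2.16e-20. The size rests on few counts: leaving out 1 library gave -6.30 to -5.00 in WT, the lower value without WT Jurkat 4 h replicate 3, and -5.54 to -5.00 in KO, all called. No other member fell as far in either genotype, but with members chosen after earlier results were known, this place is not a test. The direct comparison of Jurkat cells with OVA at 4 h gave log2 -4.53 ± 0.15 for Abca6. OVA for 4 h lowered it 1.83-fold in WT and 1.5-fold in KO (log2 -0.87 ± 0.11 and -0.59 ± 0.11, edgeR adjusted p = 8.06e-07 and 0.000319). Nothing was called at 30 min, where log2 values against untreated cells were -0.11 and -0.21 with OVA and -0.08 and 0.05 with Jurkat cells, WT first, and 0.15 between the treatments. KO exceeded WT after OVA for 4 h by 0.41 ± 0.11 (edgeR adjusted p = 0.015), a call lost without KO OVA 4 h replicate 2 or WT OVA 4 h replicate 2 (0.36 to 0.45). In the other conditions the genotype values were 0.13 untreated, 0.04 and 0.27 at 30 min with OVA and Jurkat cells, and 0.31 ± 0.42 at 4 h with Jurkat cells, none called. Response differences between genotypes were -0.10, 0.13, 0.28 and 0.18, none called.

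The neighbours of Abca6 did not all move with it. On the minus strand of chromosome 11 the array runs from Abca8b (109933406 to 109995816) through Abca8a, Abca9 (110100822 to 110168153) and Abca6 to Abca5 (110269369 to 110337716). Abca9 was at 7.12, 5.65 and 5.82 CPM in untreated WT and at 1.44, 2.57 and 1.68 CPM after Jurkat cells for 4 h, and in KO at 8.13, 6.03 and 6.25 and 1.42, 1.67 and 1.85 CPM. This is a log2 fall of 1.71 in WT and 2.04 in KO, with no overlap. Abca8b fell by 1.80 and 1.53, from 1.63 ± 0.0391 to 0.468 ± 0.0366 CPM in WT and from 2.14 ± 0.369 to 0.741 ± 0.10 CPM in KO (SD, n = 3). Abca8a had 24 counts in the untreated WT libraries and 2 after Jurkat cells for 4 h, and was called lower there; in KO the counts were 28 and 8, without a call. Abca5 went the other way, with 18.8, 16.7 and 16.4 CPM in untreated WT against 19.5, 24.7 and 18.8 CPM after Jurkat cells for 4 h, a log2 change of 0.28 that turned to -0.12 under total counts and was lost without WT Jurkat 4 h replicate 2 (0.15 to 0.35). In KO its value was 0.17, not called. With OVA for 4 h, Abca9 fell by 0.52 in WT and 0.50 in KO and Abca8b by 0.66 in WT, while Abca5 was at -0.04 and -0.07, not called. The Abca9 calls were lost without WT OVA 4 h replicate 1 or WT untreated replicate 1 (-0.60 to -0.41) in WT and without KO OVA 4 h replicate 1 or 2 or 3 or KO untreated replicate 1 (-0.58 to -0.35) in KO.

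Across the family, Jurkat cells for 4 h gave 12 members called higher and 16 lower of 38 in WT, where 38.9% of all genes tested were called higher and 40.6% lower. In KO 10 were higher and 14 lower, against 37.5% and 41% of all genes. Without KO Jurkat 4 h replicate 2, which stood apart, there were 10 higher and 15 lower in KO, with Abca1 at 0.86, Abcg1 at 0.47 and Abca6 at -5.01. The share of members called was thus near or below that of all genes, and the median log2 change of the members was -0.02 in WT and -0.07 in KO beside -0.02 and -0.03 for all genes. Scaling to total counts shifted the median of all genes to -0.42 in WT and -0.37 in KO. The medians of the members were then -0.43 and -0.41. Under this scaling 8 members were called higher and 22 lower in WT and 6 and 23 in KO. The share of all genes called was not computed for it. The values that follow are under TMM scaling, relative to the bulk of the genes. T lineage marker sums in the same libraries were 206 to 250.3 CPM in WT and 173 to 199.9 CPM in KO. The sum of 6 conventional dendritic cell 2 markers was 1573 to 1627 CPM in untreated WT and 849.5 to 913 CPM after Jurkat cells for 4 h, and 1655 to 1788 and 1001 to 1069 CPM in KO, with 6 of 6 called lower in WT and 5 of 6 in KO. The 6 general dendritic cell markers summed to 19617 to 22352 CPM untreated and 35994 to 38142 CPM at 4 h in WT, with 4 called higher and 2 lower in each genotype, and 8 (WT) and 9 (KO) of 10 stromal markers were called higher. Of 11 monocyte or macrophage markers 8 were called higher and 2 lower in each genotype. The part of these cell types in the changes of the members was not tested. The RNA of the added Jurkat cells is human, and how many of its reads were counted on mouse genes was not tested.

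**Figure D3:**
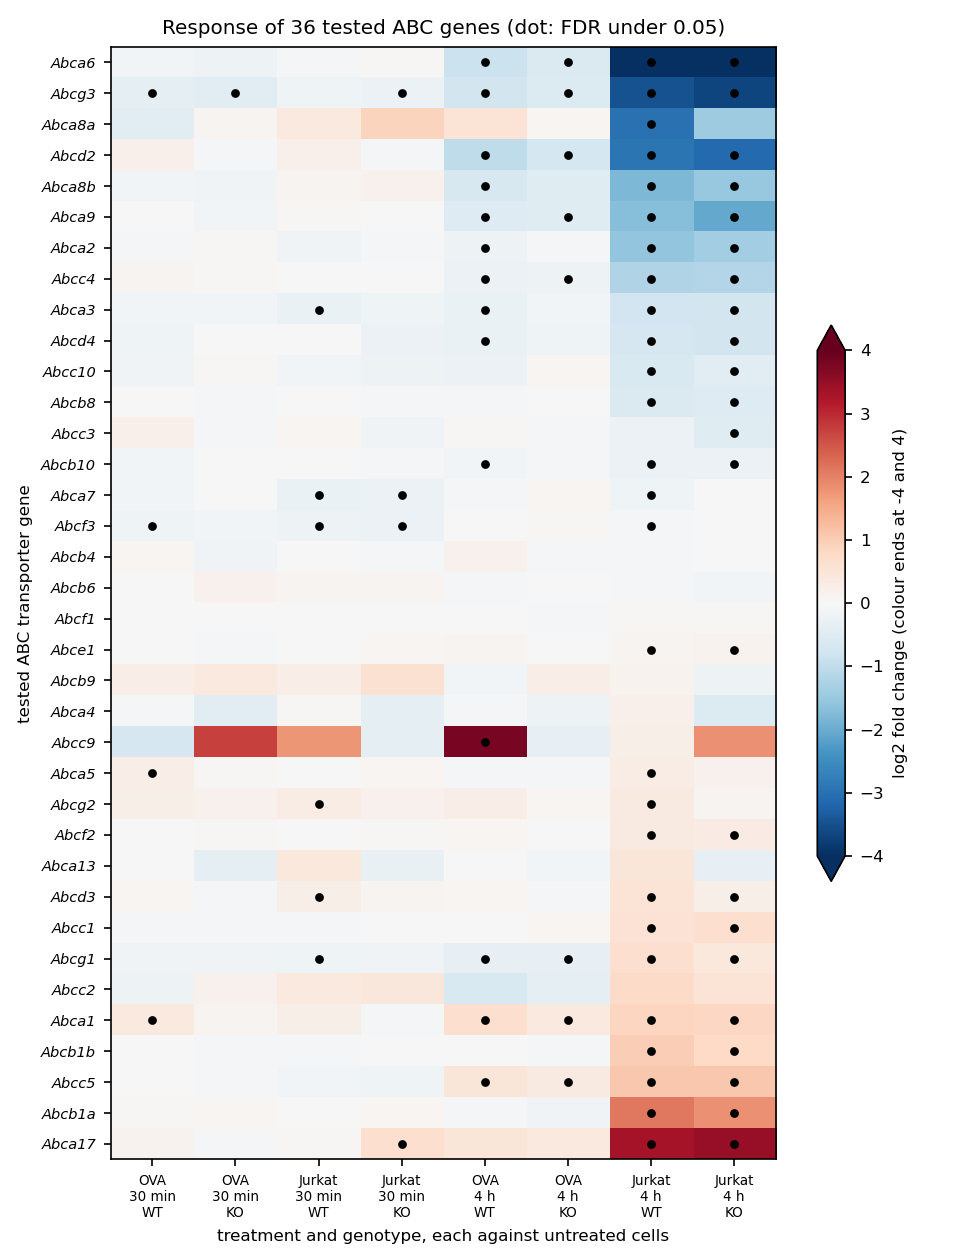
Colour map of the log2 fold change of 36 tested ABC genes (rows) after each treatment against untreated cells of the same genotype (columns); dots mark edgeR adjusted p under 0.05. The columns for 4 h with Jurkat cells hold most dots, from Abca6 at -5.35 to Abca17 at 3.32 in WT; at that time Abca5, Abce1, Abcf2 and Abcg2 in WT and Abcd3, Abce1 and Abcf2 in KO change sign under scaling to total counts.

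Among the other ABCA genes, Abca17 rose most with Jurkat cells for 4 h. It lies next to Abca3 on chromosome 17 (24264279 to 24347252, minus strand, with Abca3 at 24352023 to 24410204 on the plus strand). Its level was 0.980, 0.884 and 0.735 CPM in untreated WT and 8.13, 9.54 and 8.23 CPM after 4 h with Jurkat cells, and in KO 0.441, 0.622 and 0.601 and 6.34, 5.67 and 6.81 CPM. The rise was 9.96-fold in WT and 11.2-fold in KO (log2 3.32 ± 0.16 and 3.49 ± 0.18), with no overlap between the groups. Abca3, a phospholipid transporter of lamellar bodies, fell in the same cells by 0.77 and 0.72, from 159 ± 9.10 to 93.4 ± 5.52 CPM in WT. Abca3 overlaps D330041H03Rik over 724 bases, and the library kit named in the labels does not mark strand, so reads of that stretch cannot be told apart. Abca2, a lipid transporter of endosomes and lysosomes, fell from 159.8, 172 and 185 to 61.5, 54.0 and 59.0 CPM in WT, a log2 change of -1.57 ± 0.061, and by 1.38 in KO. Abca7 fell by 0.19 in WT. Its value in KO was -0.03, not called, and the difference of the responses, 0.16, was not called either.

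Abcg3 fell in every treatment except Jurkat cells for 30 min in WT. It was at 13.5, 12.6 and 10.6 CPM in untreated WT libraries, 9.50, 9.50 and 9.05 with OVA for 30 min, 7.73, 6.61 and 7.72 with OVA for 4 h and 1.29, 0.987 and 0.931 with Jurkat cells for 4 h. KO libraries were at 13.4, 12.5 and 12.8, 9.62, 9.77 and 8.98, 8.91, 9.71 and 8.14 and 1.02, 0.900 and 1.10 CPM in the same conditions. None of these treated groups overlapped with untreated cells of its genotype. The falls with Jurkat cells for 4 h were 11.3-fold in WT and 12.8-fold in KO (log2 -3.50 ± 0.12 and -3.68 ± 0.12). With OVA they were 0.38 and 0.43 on the log2 scale at 30 min and 0.73 and 0.53 at 4 h, WT first, all called. Its relative Abcg2, an exporter of drugs and porphyrins, rose by 0.35 with Jurkat cells for 4 h in WT under TMM scaling and stood at -0.05 under total counts. That call was lost without WT Jurkat 4 h replicate 2 or WT untreated replicate 2 (0.27 to 0.41).

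Of the cell surface ABCB pumps, both mouse P-glycoprotein genes rose with Jurkat cells for 4 h, and neither was called against untreated cells in any other treatment. They lie side by side on chromosome 5 (Abcb1a at 8660092 to 8748570 and Abcb1b at 8798147 to 8866314, plus strand) and are close in sequence, so that the split of reads between them is uncertain. Abcb1a went from 5.08, 4.05 and 4.29 to 16.9, 22.2 and 18.7 CPM in WT and from 4.30, 4.23 and 4.55 to 16.5, 14.2 and 15.8 CPM in KO. This was a 4.31-fold rise in WT and 3.54-fold in KO. Abcb1b, printed above, went from 71.8, 68.3 and 68.5 to 130.1, 149 and 133 CPM in WT and from 73.3, 67.9 and 67.8 to 130.1, 115 and 120.2 CPM in KO, 1.98-fold and 1.75-fold. No library with Jurkat cells for 4 h overlapped with an untreated one for either gene. Abcb4, the phosphatidylcholine floppase, was not called in any comparison with untreated cells. Among the ABCB proteins of organelles, the mitochondrial Abcb8 and Abcb10 fell with Jurkat cells for 4 h, Abcb8 by 0.57 and 0.52 and Abcb10 by 0.23 and 0.25, whereas the porphyrin transporter Abcb6 and the lysosomal peptide transporter Abcb9 were not called.

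In the ABCC subfamily, 7 of 10 members were tested and with Jurkat cells for 4 h 2 rose and 2 fell in WT, 2 and 3 in KO. Abcc5, an exporter of cyclic nucleotides and other organic anions, also rose with OVA at 4 h. Its WT libraries went from 29.5, 29.3 and 28.0 CPM untreated to 41.6, 43.6 and 37.7 with OVA for 4 h and 61.1, 64.9 and 57.2 with Jurkat cells for 4 h, groups without overlap. The log2 changes were 0.50 and 0.36 with OVA and 1.08 and 1.07 with Jurkat cells, WT first. Abcc1, which exports glutathione conjugates and leukotriene C4, rose with Jurkat cells from 241 ± 5.98 to 359 ± 11.1 CPM in WT and from 229 ± 8.49 to 362 ± 16.3 CPM in KO, log2 0.57 and 0.66. Abcc4, an exporter of cyclic nucleotides and prostaglandins, fell from 70.2, 70.6 and 72.2 to 30.9, 31.0 and 29.6 CPM in WT, a log2 change of -1.22 ± 0.047, and by 1.16 in KO. With OVA for 4 h it fell by 0.24 and 0.19. Abcc10 fell with Jurkat cells by 0.61 and 0.43, and Abcc3 by 0.48 in KO. Abcc9, a potassium channel subunit, was called higher with OVA for 4 h in WT. Replicate 3 held 2.28 CPM beside 0.0456 and 0.0432 CPM in replicates 1 and 2, and the log2 value of 3.81 became -0.34, not called, without replicate 3. DESeq2 and a fit of these groups alone did not call it either. In KO cells given OVA for 30 min its replicates were also far apart, at 0.0204, 1.05 and 1.74 CPM.

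Of the ABCD transporters, Abcd2, which carries very long-chain fatty acids into peroxisomes, fell at 4 h with OVA and further with Jurkat cells. Abcd2 went from 2.56, 3.10 and 2.04 CPM untreated to 1.30, 1.32 and 1.22 with OVA and 0.184, 0.508 and 0.330 with Jurkat cells at 4 h in WT. In KO it went from 3.32, 2.78 and 2.60 to 1.89, 1.76 and 1.63 and 0.535, 0.132 and 0.339 CPM. The log2 changes of Abcd2 were -1.0 and -0.71 with OVA and -2.93 and -3.10 with Jurkat cells, and the KO call with OVA was lost without KO OVA 4 h replicate 3 or KO untreated replicate 1 (-0.78 to -0.61). The lysosomal cobalamin transporter Abcd4 fell by 0.67 and 0.73 with Jurkat cells. Abcd3, which imports branched and dicarboxylic acyl chains, rose by 0.56 in WT and by 0.23 in KO under TMM scaling, the latter turning to -0.11 under total counts. The translation ATPases changed little: with Jurkat cells for 4 h Abcf2 was at 0.36 and 0.32 and Abce1 at 0.11 and 0.15, all called under TMM scaling and all below 0 under total counts, Abcf3 was at -0.09 and -0.01 with a call in WT, and Abcf1 was not called. The WT calls of Abce1 and Abcf3 were lost without WT Jurkat 4 h replicate 1 or 2 or WT untreated replicate 2 or 3 (0.07 to 0.16) and without WT Jurkat 4 h replicate 3 or WT untreated replicate 2 (-0.11 to -0.06). That of Abce1 was also lost with no filter on low counts and in a fit of these groups alone, and that of Abcf3 in such a fit, with DESeq2 or its size factors (-0.03 and -0.03), with the filter of 5 CPM (-0.04) and with the other TMM factors (-0.02).

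**Figure D4:**
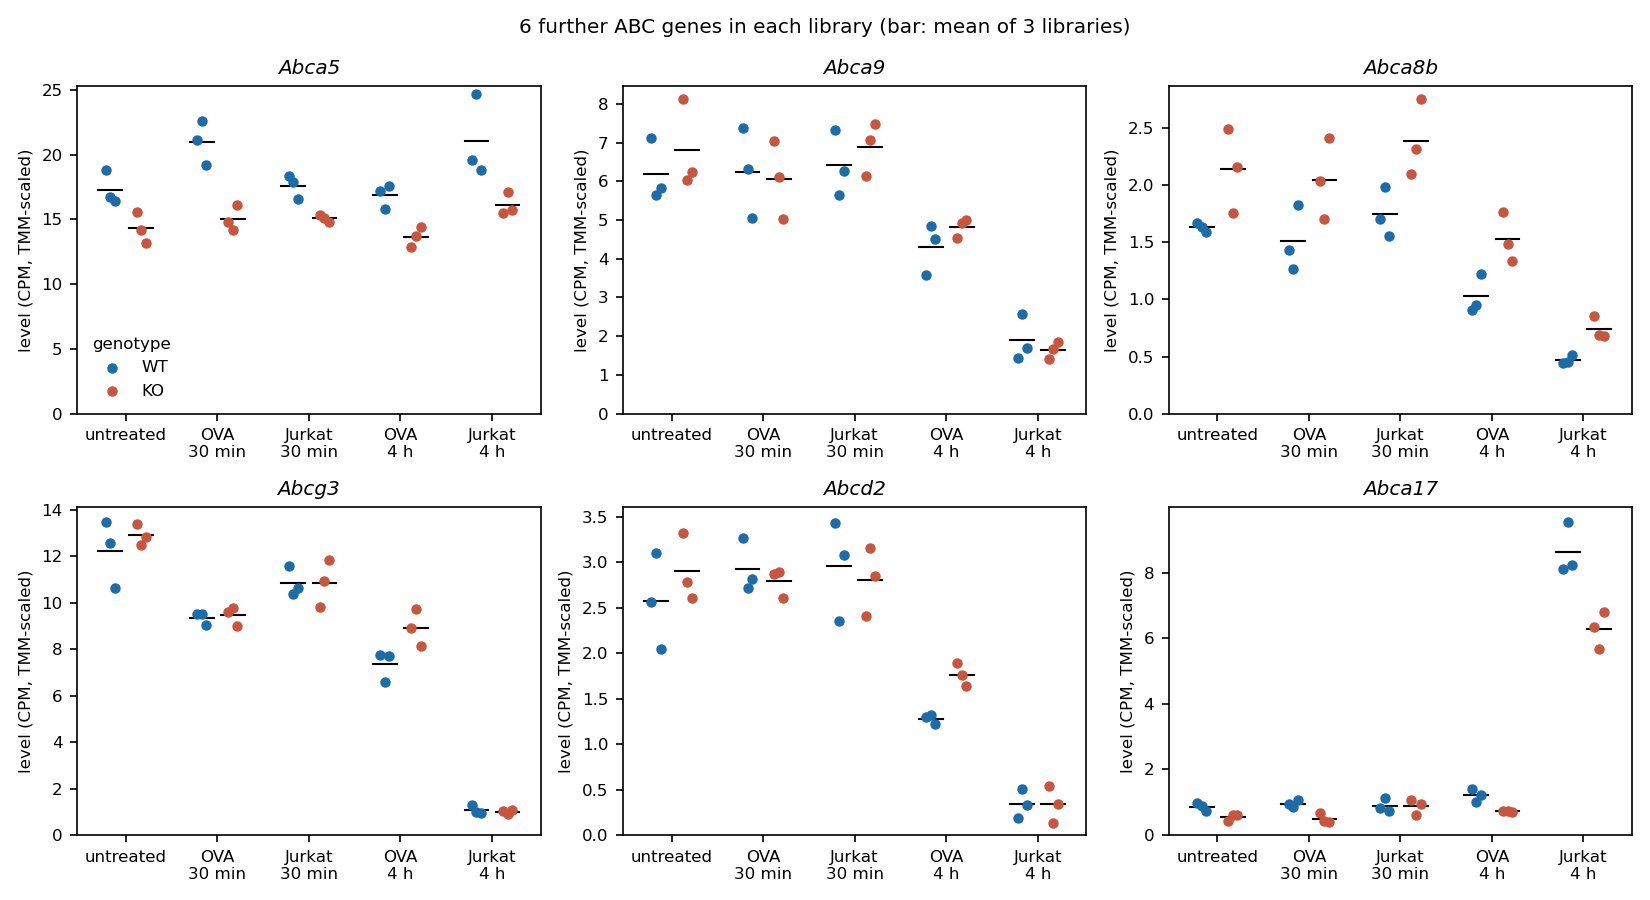
Levels of Abca5, Abca9, Abca8b, Abcg3, Abcd2 and Abca17 (TMM-scaled CPM) in each of the 30 libraries by condition and genotype; bars are means of 3 libraries. Abca9, Abcg3 and Abcd2 step down at 4 h with OVA and further with Jurkat cells, Abca17 rises with Jurkat cells at 4 h, and Abca5 is lower in KO; the rise of Abca5 in WT with Jurkat cells at 4 h turns to -0.12 on the log2 scale under total counts.

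The other treatments moved fewer members. OVA for 4 h gave 3 members higher and 12 lower in WT, where 11.9% and 11.7% of all genes were called, and 2 higher and 6 lower in KO, against 5.94% and 5.69%. In WT the 3 were Abca1, Abcc5 and Abcc9, and the largest falls among members over 1 CPM were those of Abcd2 (-1.0), Abca6 (-0.87) and Abcg3 (-0.73). The KO count was 5 without replicate 3 of KO cells given OVA for 4 h. Of the members called lower in KO, all 6 were also called lower in WT: Abca6, Abca9, Abcc4, Abcd2, Abcg1 and Abcg3. Both lists share no library, but whether the treated and untreated cells came from separate cultures is not given. In these cells 8 of 11 monocyte or macrophage markers in WT and 5 of 11 in KO were called higher, as were 4 and 2 of 10 stromal markers, and their part was not tested. The median over all members was -0.04 in WT and -0.05 in KO, beside 0.00 and 0.00 over all genes.

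After 30 min, OVA gave 2 members higher and 2 lower in WT (5.51% and 5.15% of all genes) and 0 higher and 1 lower in KO (1.88% and 1.88%, and 5 members at an unadjusted p under 0.05). The WT calls were Abca1, Abca5 (0.28), Abcg3 and Abcf3 (-0.17), and the KO call was Abcg3. The WT count fell to 2 without WT OVA 30 min replicate 1 or 2 or WT untreated replicate 2 or 3. The Abca5 call was lost without WT OVA 30 min replicate 1 or 2 or WT untreated replicate 2 or 3 (0.22 to 0.34). Jurkat cells for 30 min gave 2 members higher and 5 lower in WT (14.2% and 14.5%) and 1 higher and 3 lower in KO (8.72% and 8.26%). Abca7 fell in both genotypes, by 0.27 and 0.22, from 215, 229 and 236 to 175, 190.1 and 200.2 CPM in WT and from 184, 209.9 and 219.6 to 177, 171 and 178 CPM in KO. Abcf3 fell in both by 0.21 and 0.22, and Abca3 in WT by 0.26. Abcd3 rose in WT by 0.24, and Abcg2 by 0.31, a call lost without WT Jurkat 30 min replicate 1 or 2 or WT untreated replicate 2 or 3 (0.20 to 0.41) and with DESeq2, its size factors, no filter on low counts or a fit of these groups alone. In KO, Abca17 was called higher (0.66) and Abcg3 lower (-0.25), calls lost without KO Jurkat 30 min replicate 1 or 3 or KO untreated replicate 1 or 2 or 3 (0.48 to 0.87) and without KO Jurkat 30 min replicate 1 or 2 or KO untreated replicate 1 or 2 or 3 (-0.32 to -0.18), and both in a fit of these groups alone. The KO count fell to 2 without KO Jurkat 30 min replicate 1 or KO untreated replicate 2, and was 7 under total counts.

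Set directly against OVA over both genotypes, Jurkat cells gave 2 members higher and 2 lower at 30 min (15.5% and 14.4% of all genes) and 11 higher and 17 lower at 4 h (39.4% and 43.2%). At 30 min Abcd3 (0.15) and Abcg3 (0.20) were higher and Abca7 (-0.19) and Abcf3 (-0.08) lower, and the number called was 7 without WT Jurkat 30 min replicate 3 or WT OVA 30 min replicate 3 and 7 in a fit of these groups alone. The Abcg3 call was lost without KO Jurkat 30 min replicate 3 (0.17 to 0.23) and that of Abcf3 without KO OVA 30 min replicate 1 or WT Jurkat 30 min replicate 1 (-0.09 to -0.07), with no filter on low counts and with the other TMM factors. At 4 h, among members over 1 CPM in some group, the largest rises over OVA were those of Abca17 (2.97), Abcb1a (2.08) and Abcb1b (0.95), and the largest falls those of Abca6 (-4.53), Abcg3 (-2.96) and Abcd2 (-2.16). Total counts gave 6 higher and 25 lower at 4 h, with medians of -0.40 over all genes and -0.44 over the members. The share of all genes called was not computed under that scaling.

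Between genotypes the number of members called was small. KO against WT gave 3 higher and 1 lower untreated, where 6% and 3.97% of all genes were called higher and lower. It gave 2 and 2 after OVA for 30 min (6.25% and 6.13%), 2 and 0 after Jurkat cells for 30 min (5.58% and 3.67%), 5 and 2 after OVA for 4 h (6.22% and 6.35%) and 1 and 4 after Jurkat cells for 4 h (9.37% and 13.5%). Single libraries moved these counts: after OVA for 30 min there were 7 calls without KO replicate 1 and 2 without KO replicate 2. After Jurkat cells for 30 min there was 1 call without KO replicate 2 or 3 or WT replicate 1 or 2, and after OVA for 4 h there were 4 calls without KO replicate 1 or 2. With Jurkat cells for 4 h there were 3 without KO replicate 2 and 2 without WT replicate 2. Under total counts the split after Jurkat cells for 4 h was 7 higher and 2 lower. The medians there were 0.07 over all genes and 0.07 over the members. A fit of the compared groups alone gave 2 calls untreated and 1 after Jurkat cells for 30 min. The 5 comparisons use separate libraries, but the labels do not say whether the conditions came from separate mice or cultures. Repeated calls can therefore not be counted as independent.

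**Figure D5:**
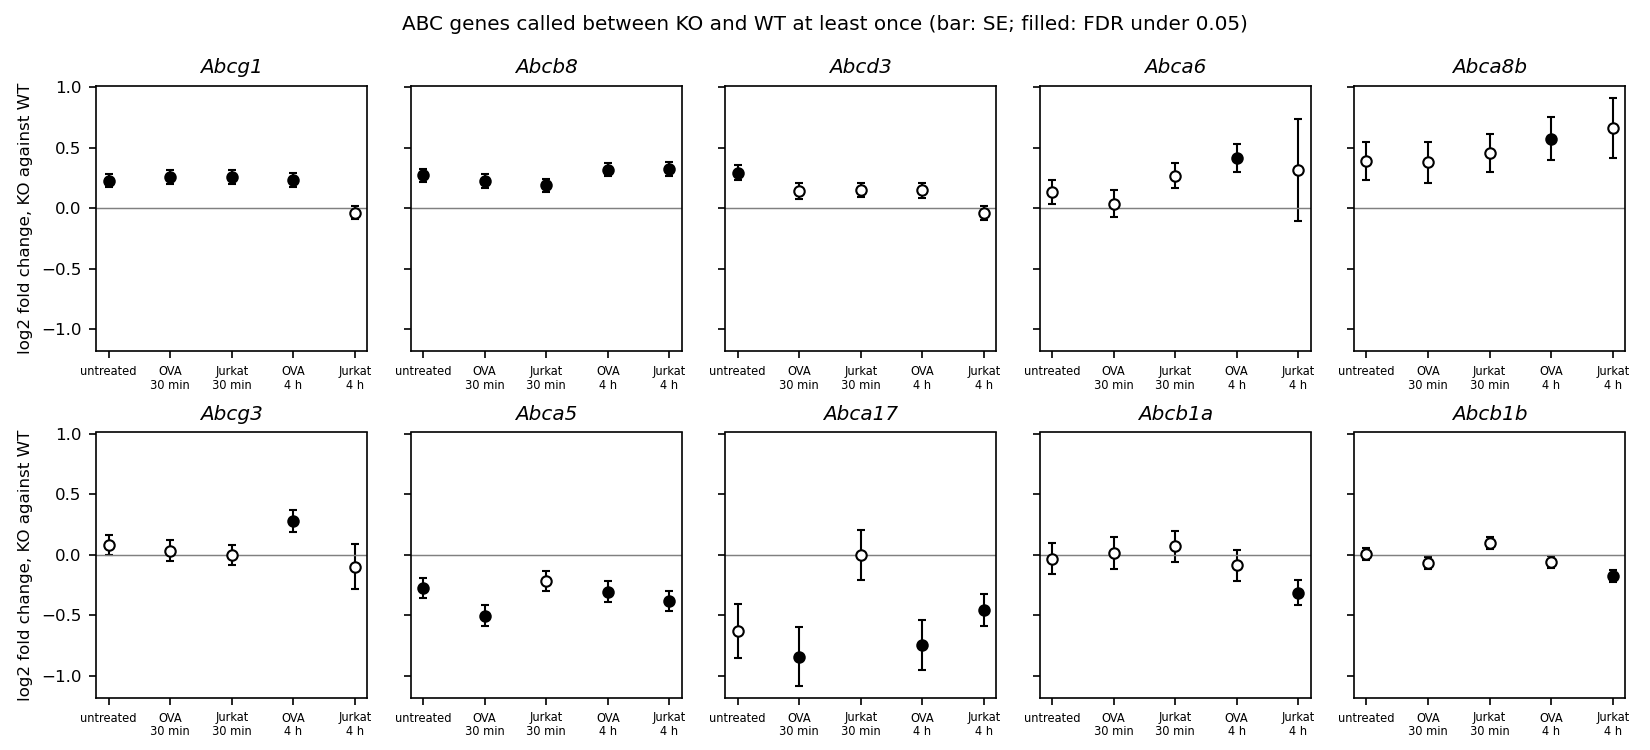
Log2 fold change of KO against WT (point) with its SE (bar) in the 5 conditions for the 10 ABC genes called at least once; filled points passed the edgeR test at an adjusted p under 0.05. Abcb8 is filled in all 5 conditions, Abcg1 in the 4 other than Jurkat cells at 4 h, and Abca5 in 4.

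Abcb8, a transporter of the inner mitochondrial membrane, was higher in KO in each of the 5 conditions. Its untreated libraries were at 20.7, 23.5 and 24.3 CPM in WT and 27.4, 28.7 and 26.7 CPM in KO. With Jurkat cells for 4 h they were at 16.8, 14.3 and 15.0 and 19.2, 19.8 and 18.8 CPM. KO libraries lay above WT libraries without overlap in all 5 conditions, and the log2 differences were 0.27, 0.22, 0.19, 0.32 and 0.32 from untreated through OVA and Jurkat cells at 30 min to OVA and Jurkat cells at 4 h. The call was lost after Jurkat cells for 30 min without KO Jurkat 30 min replicate 2 or 3 or WT Jurkat 30 min replicate 1 or 2 (0.15 to 0.22) and after OVA for 30 min without KO OVA 30 min replicate 2 (0.20 to 0.25). A fit of the compared groups alone also lost the Abcb8 call after Jurkat cells for 30 min. Abca5 was lower in KO untreated (-0.27), after OVA for 30 min (-0.51 ± 0.086), after OVA for 4 h (-0.31) and after Jurkat cells for 4 h (-0.38), and at -0.22 after Jurkat cells for 30 min it was not called. After OVA for 30 min its libraries were at 21.1, 22.6 and 19.2 CPM in WT and 14.8, 14.1 and 16.1 CPM in KO, with no overlap. Its untreated call was lost in a fit of these groups alone and without KO untreated replicate 2 or 3 or WT untreated replicate 1 or 2 (-0.34 to -0.21) and that after OVA for 4 h without KO OVA 4 h replicate 1 or WT OVA 4 h replicate 1 or 3 (-0.35 to -0.26).

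Abca17 was lower in KO after OVA for 30 min (-0.84 ± 0.24), OVA for 4 h (-0.75 ± 0.20) and Jurkat cells for 4 h (-0.46 ± 0.13). After OVA for 4 h the libraries were at 1.41, 1.01 and 1.22 CPM in WT and 0.735, 0.721 and 0.707 CPM in KO. These libraries did not overlap. The call after OVA for 30 min was lost without KO OVA 30 min replicate 2 or WT OVA 30 min replicate 3 (-1.21 to -0.63), that after OVA for 4 h without WT OVA 4 h replicate 1 (-0.86 to -0.64) and that after Jurkat cells for 4 h without KO Jurkat 4 h replicate 2 or WT Jurkat 4 h replicate 2 (-0.52 to -0.38). Abcb1a and Abcb1b were lower in KO after Jurkat cells for 4 h by 0.32 and 0.18, calls that total counts (-0.23 and -0.09) and the removal of KO or WT replicate 2 ended (-0.40 to -0.20 and -0.23 to -0.11), as did a fit of these groups alone for Abcb1b. Abcd3 was higher in untreated KO cells, at 22.8, 20.5 and 18.9 CPM against 18.5, 16.6 and 15.6 CPM in WT, by 0.29 ± 0.061, a call lost in a fit of these groups alone. After OVA for 4 h, Abca8b (0.57) and Abcg3 (0.28) were higher in KO beside Abca6; the calls were lost without KO OVA 4 h replicate 1 or 2 or WT OVA 4 h replicate 1 or 2 (0.45 to 0.73), in DESeq2 and in a fit of these groups alone for Abca8b, and without KO OVA 4 h replicate 1 or 2 or WT OVA 4 h replicate 2 (0.21 to 0.34) for Abcg3. All 6 basophil or mast cell markers were called higher in KO in each of the 5 conditions, and 7, 8, 7, 5 and 8 of 10 stromal markers in the order untreated, OVA 30 min, Jurkat 30 min, OVA 4 h and Jurkat 4 h. Of 9 plasmacytoid dendritic cell markers 3, 5, 3, 4 and 6 were called lower and 1 higher in the same order. After Jurkat cells for 4 h, 4 of 6 conventional dendritic cell 2 markers were higher and 0 lower. Of 6 conventional dendritic cell 1 markers 1 was higher and 3 lower there. Of 21 tested T lineage markers 0 were higher and 6 lower, but 4 higher and 0 lower untreated. Of 11 monocyte or macrophage markers 0 were higher and 4 lower after OVA for 4 h, and 1 and 3 after Jurkat cells for 4 h. The part of these cell types in the genotype differences was not tested.

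The difference between the KO and WT responses was tested for each treatment. No member was called by edgeR after OVA for 30 min, Jurkat cells for 30 min or OVA for 4 h, where 0%, 0.00675% and 0.0405% of all genes were called and 0, 3 and 2 members had an unadjusted p under 0.05. DESeq2 called none of the members in these 3 either. After Jurkat cells for 4 h, where 4.26% of all genes were called, Abcd3 was the 1 member called, with a smaller rise in KO and a difference of the log2 responses of -0.33 ± 0.086 (edgeR adjusted p = 0.0251). Untreated libraries of Abcd3 were at the values above, and after Jurkat cells for 4 h they were at 24.6, 24.7 and 25.5 CPM in WT and 24.3, 25 and 23.5 CPM in KO. The genotypes were apart untreated and overlapped at 4 h. The call was lost under total counts (-0.27) and in a fit of the compared groups alone (-0.29). It was also lost without replicate 3 of KO or WT Jurkat 4 h, KO untreated replicate 1 or WT untreated replicate 2 or 3. Leaving out 1 library gave -0.40 to -0.26. Under total counts 1 other member was called, with a positive response difference.

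Beside the exporters stood a list of 30 genes of cholesterol handling and liver X receptor signalling, 28 of them tested, chosen with earlier results known. With Jurkat cells for 4 h 13 were higher and 10 lower in WT and 10 and 11 in KO, where 38.9% and 40.6% of all genes were called in WT and 37.5% and 41% in KO, with medians of 0.11 and -0.03 beside -0.02 and -0.03 over all genes. Cyp27a1, a mitochondrial sterol hydroxylase, fell by 2.28 and 2.32, from 152 ± 6.67 to 31.2 ± 2.90 CPM in WT. Scarb1, a receptor for high-density lipoprotein, fell by 1.67 and 1.47. The difference of the KO and WT responses was called for 4 of the 28, all negative, where 4.26% of all genes were called.

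With OVA for 4 h, 6 of the 28 were higher and 7 lower in WT (11.9% and 11.7% of all genes) and 2 and 2 in KO (5.94% and 5.69%). Nr1h3, which encodes liver X receptor alpha, rose by 1.74 ± 0.12 in WT and 1.33 ± 0.13 in KO, from 9.76 ± 1.90 to 32.5 ± 3.11 CPM in WT and from 8.59 ± 1.73 to 21.5 ± 2.21 CPM in KO. In these libraries Abca1 was higher and Abcg1 lower than in untreated cells. KO cells held less Nr1h3 than WT after OVA for 4 h (-0.59 ± 0.11, edgeR adjusted p = 0.000443), where Abcg1 was higher in KO. The difference of the KO and WT responses to OVA at 4 h was called for 0 of the 28, Nr1h3 included, where 0.0405% of all genes were called. In WT, Cyp27a1 fell by 0.38. In KO, Npc1, which releases cholesterol from lysosomes, fell by 0.28 and Apoe rose by 0.34. At 30 min in WT the list gave 4 higher and 2 lower with OVA (5.51% and 5.15% of all genes) and 5 and 3 with Jurkat cells (14.2% and 14.5%). Mylip, a ubiquitin ligase and known liver X receptor target, was higher with OVA in WT (0.25) and with Jurkat cells (0.27 in WT and 0.23 in KO).

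Between genotypes the list gave 6 higher and 0 lower untreated, where 6% and 3.97% of all genes were called. It gave 3 and 0 after OVA for 30 min (6.25% and 6.13%), 2 and 0 after Jurkat cells for 30 min (5.58% and 3.67%), 4 and 2 after OVA for 4 h (6.22% and 6.35%) and 3 and 6 after Jurkat cells for 4 h (9.37% and 13.5%). Untreated, the phospholipid acyltransferase Lpcat3 (0.20) and Mylip (0.21) were among the 6 called higher in KO. Of the exporters, Abcg1 was called higher there (0.23) and Abca1 (0.22) was not called. Whether these values share a cause was not tested. With Jurkat cells for 4 h, Npc2, the partner of Npc1, was lower in KO by 0.27. Among ABC genes whose symbols fall outside the rule, the peptide transporter subunits Tap1 and Tap2, which load MHC class I, rose with Jurkat cells for 4 h by 1.76 and 1.45 in WT and 1.78 and 1.28 in KO. Tap1 was lower in KO in all 5 conditions, from -0.18 to -0.31.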

How the data were processed

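Bulk RNA-seq counts per gene were deposited for 30 libraries, 3 in each of 10 groups. Per the submitters' processing notes, the authors used STAR 2.5, Subread, featureCounts 1.5.0-p1 and DESeq2 with the mm10 build; the order and settings of these tools and the strand setting were not given in the sources used here. The values are whole-number read counts, as deposited by the authors, for 25611 gene rows, and 396 symbols occur at more than 1 interval. The members and gene lists were chosen with earlier results of these data known.

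From the counts, 14808 genes with enough reads (edgeR's filterByExpr by group, minimum count 10) were kept, scaled by TMM and fitted in 1 edgeR 4.0.16 quasi-likelihood model of all 30 libraries (R 4.3.3, limma 3.58.1). The 19 comparisons were KO against WT in each condition, each treatment against untreated cells within a genotype, the difference of these responses, and Jurkat cells against OVA at each time. Benjamini-Hochberg adjusted p under 0.05 was the threshold. The filter kept 99.99% of counts. The common biological coefficient of variation was 0.0515. Replicates differed by more than counting noise, with chi-square per degree of freedom of 2.28 to 133.8, and none was a duplicate. The script was tested on simulated data. Named genes were Abca1, Abcg1 and Abca6 throughout, up to 3 members in each direction per comparison by fold change with a mean of at least 1 CPM in the higher group, other members as examples of their role, and up to 3 of the cholesterol list by p. Exon lengths came from GENCODE M21 and promoters from RefSeq (GRCm38.p6). Alternatives were DESeq2 1.42.0, its size factors, total counts, other filters on low counts, a replicate block, fits of the compared groups alone, summed rows of 1 symbol and leaving out each library. Results for 4 genes are not reported here.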

Additional observations from a re-analysis of the deposited data

Results flagged for a closer look

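The response of Abcd3, the peroxisomal importer, to Jurkat cells for 4 h differed between the genotypes by -0.33 on the log2 scale (KO minus WT, edgeR adjusted p = 0.0251), with rises of 0.56 in WT and 0.23 in KO. It was listed because the difference itself passed the test. The call was lost when libraries were scaled to total counts (-0.27), when the compared groups were fitted alone (-0.29), and without KO Jurkat 4 h replicate 3, KO untreated replicate 1, WT Jurkat 4 h replicate 3 or WT untreated replicate 2 or 3.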

How the results depend on the processing

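Total counts moved the number of members called to 9 for KO against WT after Jurkat cells for 4 h. For Jurkat cells for 30 min in KO it was 7. Shares of all genes called were not computed under this scaling, nor under any other alternative setting. The same scaling turned Abcg1 to 0.0454 for KO against WT after Jurkat cells for 4 h and the Abca1 response difference to 0.0272. In Jurkat cells for 4 h against untreated cells it turned Abca5 to -0.12, Abce1 to -0.29, Abcf2 to -0.0461 and Abcg2 to -0.0504 in WT, and Abcd3 to -0.11, Abce1 to -0.19 and Abcf2 to -0.0213 in KO. In Jurkat cells against OVA at 4 h it turned Abca1 to -0.0610, Abca5 to -0.0875 and Abcf2 to -0.0640. For the response difference at 4 h with Jurkat cells, 2 members were called with a filter of at least 5 CPM in 3 libraries, 2 in DESeq2 and 2 with the TMM factors added after seeing the data (leaving out genes that exceeded OVA in the 30 min Jurkat groups), against 0 in fits of the compared groups alone. Such fits gave 2 calls for KO against WT untreated, 1 after Jurkat cells for 30 min and 7 for Jurkat cells against OVA at 30 min, and an Abca1 response difference of 0.00202 at 4 h with Jurkat cells. The added TMM factors turned Abcg1 to 0.0234 for Jurkat cells against OVA at 30 min. Under total counts the response difference at 4 h with Jurkat cells was called for 1 member, positive and not Abcd3. The cause of these changes was not tested.

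Leaving out each library in turn gave, for KO against WT, 3 to 5 calls untreated, 2 to 7 after OVA for 30 min, 1 to 3 after Jurkat cells for 30 min, 4 to 8 after OVA for 4 h and 2 to 6 after Jurkat cells for 4 h. Against untreated WT cells it gave 2 to 5, 5 to 10, 10 to 14 and 25 to 29 calls, in the order OVA 30 min, Jurkat 30 min, OVA 4 h and Jurkat 4 h, and against untreated KO cells 1 to 1, 2 to 4, 5 to 8 and 24 to 25. Response differences gave 0 to 0 calls for the first 3 treatments and 0 to 2 for Jurkat 4 h, and Jurkat cells against OVA gave 3 to 7 at 30 min and 27 to 29 at 4 h. Shares of all genes called were not computed for the fits that leave out a library, so these ranges cannot be set against them. The uncalled log2 values that changed sign ranged as follows. For KO against WT, Abca1 ran from -0.14 to 0.0670 and Abca6 from -0.12 to 0.18 after OVA for 30 min, and Abca6 from -0.0613 to 1.27 and Abcg1 from -0.10 to 0.0456 after Jurkat cells for 4 h. For the response differences, Abca6 ran from -0.25 to 0.0469 and Abcg1 from -0.00751 to 0.0543 with OVA for 30 min, Abcg1 from -0.0166 to 0.0818 with Jurkat cells for 30 min and from -0.0205 to 0.0337 with OVA for 4 h, and Abca1 from -0.21 to 0.15 and Abca6 from -0.19 to 1.14 with Jurkat cells for 4 h. Abca1 with Jurkat cells for 30 min in KO ran from -0.17 to 0.10, and Abcg1 in Jurkat cells against OVA at 30 min from -0.0314 to 0.0179. Abcc9 with OVA for 4 h in WT, which was called, ran from -0.34 to 4.34.

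With the replicate number as a block, 7 members were called for Jurkat cells for 30 min in KO, beside 4 without it. All 181 gene results that were followed kept their call. These were members called without the block, and Abca1, Abcg1 and Abca6 throughout. Members called only with the block, and small changes in the other numbers called, were not listed. Correlations of same-numbered libraries of different groups ran from -0.205 to 0.217 with a median of 0.0041, beside -0.00012 for other numbers. Of 135 same-numbered pairs 11 were over 0.1, and 14 of 30 libraries correlated best with their own number. These values cannot decide whether same-numbered libraries were made together. The members under 1 CPM are limited by depth, and Abcc9 also by the spread between replicates.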
